A study of Mus musculus with 6 samples.

Results

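The miR-99, miR-100 and miR-125 precursors of mouse bone marrow are 7 miRNA genes in 3 clusters, and all 7 had reads among the 1823 non-coding RNA features listed in at least 1 library, 912 of them miRNA genes. They were found by matching the position of each feature to the miRNA genes of GENCODE M21 (GRCm38) named Mir99a, Mir99b, Mir100, Mir125a, Mir125b-1, Mir125b-2 and Mirlet7e. The set was chosen partly on measured values, since Mir100 had few reads in 2 of the 3 KO libraries. The KO and WT values of Mir100 are therefore a description and carry no test. The question was whether the genes next to Mir100, and its paralogues on other chromosomes, had the same profile across libraries.

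Libraries were made from bone marrow of 3 mice or pools labelled Mat KO, a maternal knockout (KO), and 3 labelled wildtype (WT). The design text names lineage-negative cells, the marrow fraction left after mature blood cells are removed, and the series title places the work at the imprinted Dlk1-Gtl2 locus. The sources used here do not give the deleted segment, strain, age or number of animals per library. Since nothing says that replicates were separate animals, a p-value reflects only variation among these 6 libraries, some or all of it possibly technical. Total RNA went into a small RNA kit and a gel cut of 170 to 370 bp with adaptors, a window set for snoRNAs, so a read assigned to a miRNA gene is described as a read of its precursor region and not as the mature miRNA. Values given in a run of 3 are those of replicates 1, 2 and 3 of the genotype named. Library totals were 47299957 to 51837721 counts in KO and 45398303 to 53299322 in WT, and each level in CPM is relative to its own library total.

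A miRNA is cut from a hairpin precursor into a short mature strand that pairs with target mRNAs mainly through its seed, bases 2 to 8. The 3 clusters are ancient copies of one arrangement in which a miR-99 or miR-100 gene is followed by a let-7 gene and a miR-125 gene. miR-125 genes are known for high activity in blood stem cells, where raised levels expand stem and progenitor cells and can lead to leukaemia in mice. miR-99 and miR-100 are known regulators of the mTOR pathway, and let-7 is known for restraining proliferation and promoting differentiation.

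RefSeq (GRCm38.p6) holds mature sequences for 7 of the 7 genes and hairpins for 5. The mature 5′ strands are shown because they sort the members into families that cut across the 3 clusters. Capitals mark the seed. Mir100, Mir99a and Mir99b share the seed ACCCGUA:
miR-100-5p: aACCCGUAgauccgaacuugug
miR-99a-5p: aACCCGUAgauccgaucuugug
miR-99b-5p: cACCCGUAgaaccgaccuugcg
The miR-125 strands share the seed CCCUGAG, and Mir125b-1 and Mir125b-2 give the same mature strand:
miR-125b-5p: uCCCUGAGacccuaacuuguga
miR-125a-5p: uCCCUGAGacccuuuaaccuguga
The let-7 member has the let-7 seed GAGGUAG:
let-7e-5p: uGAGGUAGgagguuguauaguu

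Over 22 bases, miR-100-5p differed from miR-99a-5p at 1 base and from miR-99b-5p at 4. The precursor hairpins are shown for the 3 genes that the results turn on, with the mature 5′ strand in capitals.
Mir100: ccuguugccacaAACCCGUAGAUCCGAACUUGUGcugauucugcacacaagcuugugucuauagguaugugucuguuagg
Mir99a: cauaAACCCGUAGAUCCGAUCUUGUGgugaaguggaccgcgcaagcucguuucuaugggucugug
Mir125a: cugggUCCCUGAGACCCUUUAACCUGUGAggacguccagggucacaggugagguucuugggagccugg

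All 7 genes lie on the plus strand. Mir100 (chr9:41531425-41531504, 80 nt) and Mir125b-1 (chr9:41581926-41582002, 77 nt) lie in introns of 3110039I08Rik, which RefSeq calls Mir100hg, and a let-7 precursor lies between them. Mir99a (chr16:77598936-77599000, 65 nt) and Mir125b-2 (chr16:77646273-77646343, 71 nt) lie in introns of Mir99ahg, again with a let-7 precursor between them. Mir99b (chr17:17830188-17830257, 70 nt) and Mirlet7e (chr17:17830352-17830444, 93 nt) lie in introns of Spaca6, and Mir125a (chr17:17830812-17830879, 68 nt) overlaps a Spaca6 exon. The gap before the miR-125 gene is 45115 bases on chromosome 9 and 46523 on chromosome 16, against 368 on chromosome 17.

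On the opposite strand, Mir100 overlaps an exon of the long non-coding RNA Gm48742, Mir99a lies in an intron of Gm11146, and Mirlet7e lies within Gm25927, which is itself a counted feature. No source used here states the strand setting of the counting, so reads of Mirlet7e and Gm25927 cannot be told apart. Gm25927 had 3, 10 and 0 reads in KO and 1, 8 and 4 in WT.

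**Figure D1:**
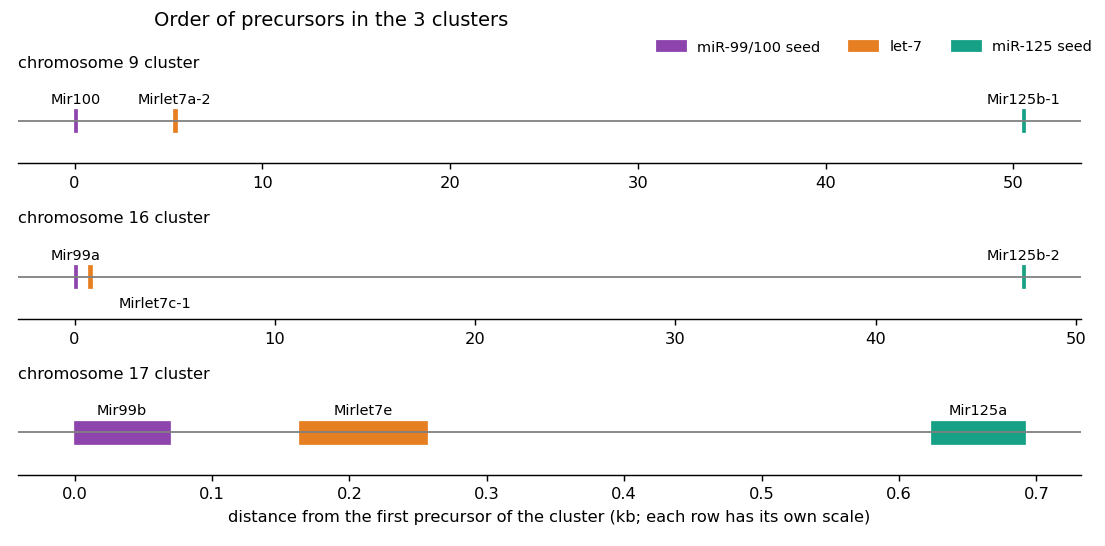
Positions of the precursors along each cluster, as the distance in kb from the first precursor, with 1 row and 1 scale per cluster. Colours mark the miR-99/100 seed, the let-7 precursors and the miR-125 seed. The order is the same in the 3 clusters, and the chromosome 17 cluster is the compact one, with gaps of 95 and 368 bases.

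KO replicate 2 stood apart in the precursors of skeletal and cardiac muscle miRNAs. Mir1a-1, whose mature product is the main miRNA of striated muscle, had 2, 258 and 7 reads in KO and 3, 7 and 9 in WT. Mir133a-2, a muscle precursor transcribed together with a Mir1a gene, had 0, 116 and 1 reads in KO and 0 in each WT library. All 5 precursors on the muscle list (Mir1a-1, Mir1a-2, Mir133a-1, Mir133a-2 and Mir206) were highest in KO replicate 2, where their summed level was 14.9 CPM, against 0.0825 to 0.354 CPM in the other libraries.

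Other markers differed among libraries on a smaller scale. The 7 listed stromal and smooth muscle precursors summed to 779 to 1252 CPM in KO and 513 to 1434 CPM in WT, nearly all of it Mir21a, which many cell types express. Mir199a-1, a mesenchymal miRNA, had 16, 106 and 37 reads in KO and 11, 41 and 18 in WT. The liver miRNA precursor Mir122 had 0, 1 and 0 reads in KO and 20, 23 and 0 in WT. Blood markers were present throughout, with 15.5 to 23.2 CPM in KO and 9.68 to 21.1 CPM in WT for the myeloid Mir223 and Mir142 together. The B lymphoid Mir150 had 194, 279 and 288 reads in KO and 37, 145 and 116 in WT, with each KO library above each WT library. Over all 624 features tested, 2.72% had this order. The log2 fold change of Mir150 was 1.38 (SE 0.54) and did not pass edgeR at an adjusted p of 0.710. The 3 erythroid precursors summed to 3.23 to 8.49 CPM in KO, highest in replicate 2, and 1.61 to 4.02 CPM in WT, each with a higher estimate in KO and 0 of 3 called. Mir451a, the largest of them, had 143, 353 and 85 reads in KO and 51, 69 and 144 in WT. KO replicate 2 also had less of the longer features, with a median of -0.64 (log2, relative to the mean of the 6 libraries) over 93 features of 160 to 350 nt, against -0.09 to 0.23 in the other libraries. The size of this shift depends on the lower length limit, chosen after the data were seen: over the 71 of these features left by a limit a few bases higher, the median was -0.82 in KO replicate 2 and -0.25 to 0.47 in the others. For 265 other features of 65 to 93 nt, the lengths of the members, its median was 0.15. For 201 miRNA features of any length other than the members, the median was 0.56 in KO replicate 2, 0.33 in WT replicate 2 and -0.49 in WT replicate 1, against -0.15 to 0.02 in the other libraries. Within KO all 7 members had their highest level in replicate 2, within WT 5 of the 7 did, and Mir125a was lowest in WT replicate 1. Results that rest on KO replicate 2 are given with and without it, and the part of these markers in them was not tested.

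**Figure D2:**
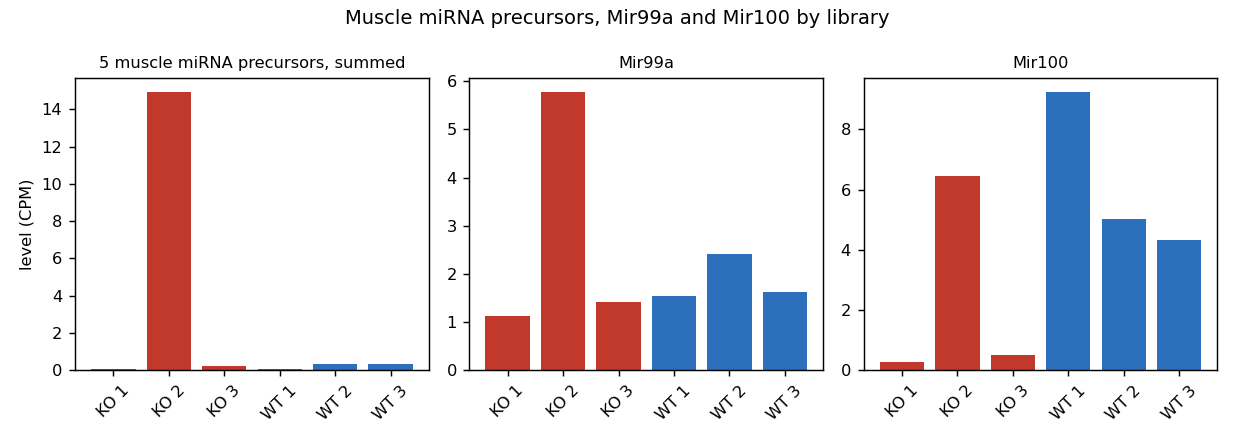
Level in CPM (linear axes starting at 0, each panel with its own scale) of the summed muscle miRNA precursors, Mir99a and Mir100, with 1 bar per library, KO in red and WT in blue. KO replicate 2 holds 14.9 CPM of muscle precursors and the highest Mir99a level of the 6 libraries, 5.77 CPM.

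The members covered a wide range of levels, and the miR-99 and miR-100 genes were the abundant ones. Per kilobase of precursor, Mir100 averaged 53.8 ± 43.3 CPM per kb, Mir99a 35.6 ± 26.8 and Mir99b 18.1 ± 7.29 over the 6 libraries (SD, n = 6). The miR-125 genes were lower, at 3.68 ± 2.28 CPM per kb for Mir125a, 2.19 ± 1.15 for Mir125b-2 and 1.29 ± 0.90 for Mir125b-1. Mirlet7e was lowest at 0.911 ± 0.586 CPM per kb. Within each cluster the miR-99 or miR-100 gene thus gave more reads per length than the miR-125 gene in each of the 6 libraries. Across clusters, Mir100 lay below Mir125a in KO replicate 1, at 0.700 of its level per kb.

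The order of the 6 members other than Mir100 was tested by comparing levels within each library, which is not a test of KO against WT. The KO and WT libraries were pooled, so a ratio that differs between genotypes enters its mean and SD. In 15 pairs, an exact two-sided sign-flip permutation test of the mean log2 ratio per kb over 6 libraries, with Benjamini-Hochberg adjustment over the 15, passed 11 pairs. Each of the 11 had the same order in 6 of 6 libraries, with an exact p = 0.03125, the smallest that 6 libraries allow, and an adjusted p of 0.0426. Mir99a exceeded Mir99b by 0.82 ± 0.66 on the log2 scale and Mir99b exceeded Mir125a by 2.52 ± 1.02 (SD, n = 6). Mir125b-2 exceeded its paralogue Mir125b-1 by 0.96 ± 0.90, with the 1 library at 0 reads of Mir125b-1 set to 0.5 reads. Reads were few, at 2, 12 and 6 of Mir125b-2 against 0, 11 and 5 of Mir125b-1 in KO. In WT they were 6, 12 and 8 against 5, 3 and 6. Both genes give the same mature strand, and the treatment of reads with several matches is not stated. Whether the counts separate the copies is therefore unknown. Among neighbours in the order, Mir125a and Mir125b-2 did not differ beyond their spread (0.66 ± 1.48, higher in 3 of 6 libraries, exact adjusted p = 0.435). Neither did Mir125b-1 and Mirlet7e (0.32 ± 1.62, higher in 4 of 6 libraries, exact adjusted p = 0.594). The order of Mir125a and Mir125b-2 was opposite in the 2 genotypes, which the pooled test does not show. Mir125a held ranks 3, 4 and 4 of the 7 in KO, against 6, 5 and 5 for Mir125b-2. In WT it held ranks 6, 5 and 5, against 4, 4 and 4. Both genes had few reads, and this split was looked at after the values were seen, so nothing is read from it. Mir100 ranked first of the 7 in each WT library, and at ranks 4, 2 and 3 in KO.

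Mir100, the gene whose values helped choose the set, had 14, 335 and 24 reads in KO and 492, 228 and 220 in WT. As levels these were 0.289, 6.46 and 0.507 CPM in KO and 9.23, 5.02 and 4.33 CPM in WT. KO replicates 1 and 3 lay below every WT library and KO replicate 2 lay among them, so the genotypes overlapped. The group means were 2.42 ± 3.50 CPM in KO and 6.20 ± 2.65 CPM in WT (SD, n = 3 each), and the fitted log2 fold change was -1.26 (SE 1.10). Without KO replicate 2, the only KO library where Mir100 was not low, it was -3.83 (SE 0.53). The mean of KO replicates 1 and 3 was then 0.398 CPM, 15.6-fold lower than the WT mean. Low reads in KO replicates 1 and 3 helped choose the set, so these values are a description and no support for a difference. The range within the KO group, 4.26 on the log2 scale (log2 of CPM + 0.05), was the 4th widest of 624 features, whose median was 0.75. In WT the range was 1.08, the 131st widest, against a median of 0.57. In bulk libraries, fewer cells of a type and less of the RNA in each cell cannot be told apart.

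**Figure D3:**
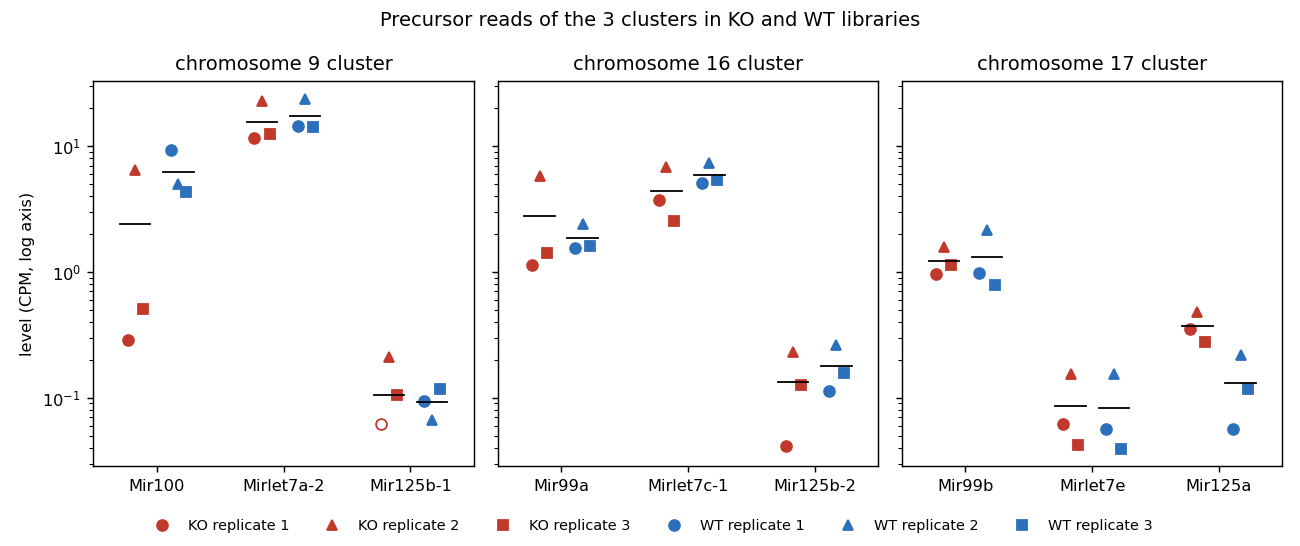
Level in CPM (log axis) of the 7 members and the 2 let-7 precursors of the same clusters, with 1 point per library, KO in red left of WT in blue, the shape giving the replicate and the bar the group mean. The open circle marks 0 reads of Mir125b-1 in KO replicate 1, drawn at the limit of 3 counts, 0.0619 CPM. Mir100 spreads over more than a decade in KO, with its high point in replicate 2, and the KO points of Mir125a all lie above the WT points.

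Of the neighbours of Mir100 in the same host introns, Mir125b-1 gave too few reads to follow it and the let-7 precursor gave enough. Mir125b-1 had 0, 11 and 5 reads in KO and 5, 3 and 6 in WT. Its groups overlapped around 0.106 ± 0.106 CPM in KO and 0.0927 ± 0.0261 CPM in WT (SD, n = 3 each). No reads in KO replicate 1 allow a level of up to 0.0619 CPM, 3 counts of that library. This limit describes counting error alone, because amplified reads lacking molecular identifiers are not separate molecules. Mir125b-1 did not pass the expression filter. The let-7 precursor between the pair, Mirlet7a-2, had 565, 1178 and 591 reads in KO and 772, 1083 and 716 in WT, with a log2 fold change of -0.09 (SE 0.37, adjusted p = 0.952 by edgeR) and of -0.41 (SE 0.34) without KO replicate 2. With all 6 libraries the estimate of Mir100 was -1.26 (SE 1.10). Without KO replicate 2 it was far lower than that of Mirlet7a-2, the one neighbour with enough reads to compare. Low Mir100 reads in KO replicates 1 and 3 helped choose the set, which alone can give such a gap. The difference is described, was not tested, and nothing is read from it.

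On chromosome 16 the paralogue of Mir100 had its own high library. Mir99a had 55, 299 and 67 reads in KO and 82, 110 and 82 in WT, or 1.13, 5.77 and 1.42 CPM in KO and 1.54, 2.42 and 1.61 CPM in WT. The highest and the lowest value were both in KO. The log2 fold change was 0.66 (SE 0.66, adjusted p = 0.779 by edgeR), and without KO replicate 2 it turned to -0.42 (SE 0.36, adjusted p = 0.969), so 1 library set its direction. The let-7 precursor next to it, Mirlet7c-1, had 180, 355 and 120 reads in KO and 273, 332 and 271 in WT, with a log2 fold change of -0.36 (SE 0.42, adjusted p = 0.803 by edgeR) and of -0.80 (SE 0.34) without KO replicate 2.

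Mir125b-2, further along the same host, had 2, 12 and 6 reads in KO and 6, 12 and 8 in WT, a mean of 0.133 ± 0.095 CPM in KO and 0.178 ± 0.078 CPM in WT (SD, n = 3 each). Its groups overlapped and it did not pass the filter. Per length, the Mir100 level was 0.207, 0.910 and 0.291 times that of Mir99a in KO replicates 1 to 3 and 4.88, 1.68 and 2.18 times in WT replicates 1 to 3. This ratio was below 1 in each KO library and above 1 in each WT library, but it was looked at after the values were seen, uses the Mir100 reads that chose the set, and is low in KO replicate 2 where Mir99a was high. Against Mir125a, the Mir100 level per length was 0.700, 11.4 and 1.57 times in KO and 139, 19.4 and 31.2 times in WT, also with no overlap. That ratio uses the same Mir100 reads, and Mir125a had few reads, so nothing is read from it. The ratios to Mir125b-2, Mir99b, Mirlet7e and Mirlet7a-2 overlapped. Against Mir99b, the Mir100 level per length was 0.261, 3.62 and 0.389 times in KO and 8.28, 2.04 and 4.81 times in WT. Per read of Mirlet7a-2, there were 0.0248, 0.284 and 0.0406 reads of Mir100 in KO and 0.637, 0.211 and 0.307 in WT, so KO replicate 2 lay among the WT libraries for both.

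**Figure D4:**
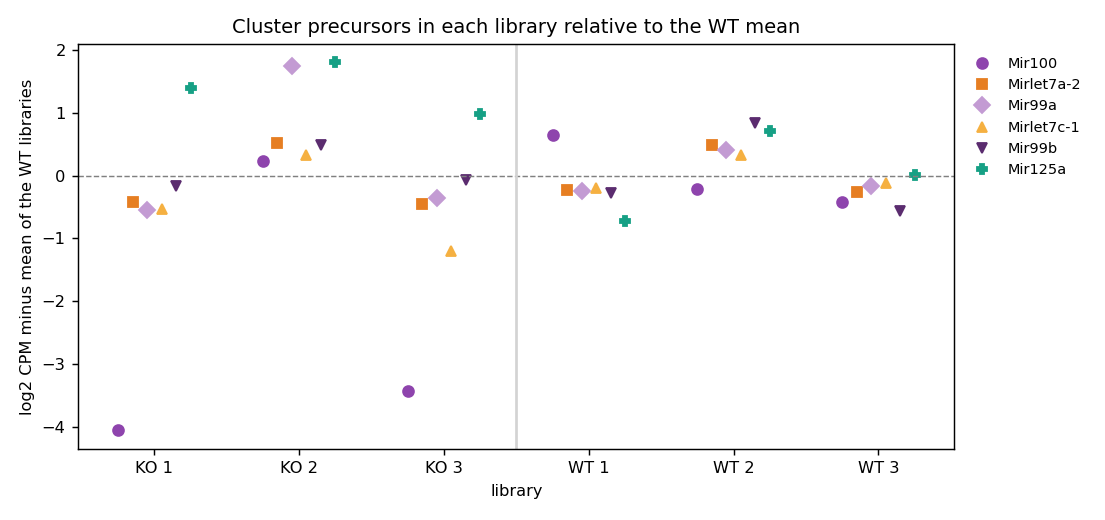
Level in each library of the 4 members that passed the filter and the 2 let-7 precursors, as log2 CPM minus the mean of the WT libraries, with 1 symbol per gene and the KO libraries left of the WT libraries. Mir100 lies at -4.06 and -3.44 in KO replicates 1 and 3 and at 0.24 in KO replicate 2, Mir99a at 1.74 in KO replicate 2, and Mir125a above 0 in each KO library.

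In the compact chromosome 17 cluster the first gene did not separate the genotypes. Mir99b had 47, 81 and 54 reads in KO and 52, 98 and 40 in WT. Its level was 1.22 ± 0.31 CPM in KO and 1.31 ± 0.74 CPM in WT (SD, n = 3 each), with a log2 fold change of -0.02 (SE 0.45, adjusted p = 0.989 by edgeR), and the sign of that value turned with the scaling. Mirlet7e, the let-7 gene of the cluster, had 3, 8 and 2 reads in KO and 3, 7 and 2 in WT. The counts of Mirlet7e were nearly the same in both genotypes, at 13 and 12 reads in all, and too low for the filter.

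Mir125a, the last gene of the cluster, had more reads in KO. Its counts were 17, 25 and 13 reads in KO and 3, 10 and 6 in WT, or 0.351, 0.482 and 0.275 CPM in KO and 0.0563, 0.220 and 0.118 CPM in WT. Each KO library lay above each WT library. The log2 fold change was 1.57 (SE 0.51), with an unadjusted p of 0.0190 and an adjusted p of 0.700 over 624 features by edgeR, so it did not pass the test. It met the expression filter only through its KO libraries, the group where it was high, so neither this p nor the lack of overlap is support for a difference. With any 1 library left out it was between 1.29 and 2.21, and the adjusted p was between 0.236 and 0.969 over all alternatives. The reads are few, at 55 in KO and 19 in WT. Read for read against Mir99b, which lies in the same host, Mir125a stood at 0.362, 0.309 and 0.241 in KO and 0.0577, 0.102 and 0.150 in WT, a ratio chosen after the values were seen, whose groups also did not overlap.

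Taking the set as a whole, 4 of the 7 members passed the expression filter, and none of the 3 other than Mir100 was called by edgeR's quasi-likelihood test at an adjusted p of 0.05. Over all features 0.160% were called, 1 of 624, which was DQ267100 (log2 fold change -5.50, SE 0.58, adjusted p = 0.0242), a snoRNA gene on chromosome 12. No feature was called when KO replicate 3 or any 1 WT library was left out. At an unadjusted p under 0.05 by edgeR, 1 of the 3 members (Mir125a) passed, as did 40 of all 624 features. DESeq2 called 0 of the 3 members. Of the 7 members, 1 had genotypes that did not overlap, Mir125a, against 15.2% of the 624 features in either direction and 2.72% with KO higher. Because the set was chosen with the KO and WT reads of Mir100 in view, nothing is read from these counts.

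Without KO replicate 2, 0 of the 3 members other than Mir100 were called, and 2 of the 7 members had KO libraries below every WT library, Mir100 and Mir99a. Both let-7 precursors, Mirlet7a-2 beside Mir100 and Mirlet7c-1 beside Mir99a, were so placed too, 1.45-fold and 1.90-fold lower than the WT mean. Over the 646 features fitted then, 15.9% had this order. The Mir99a mean was 1.28 CPM in KO replicates 1 and 3 and 1.86 CPM in WT, 1.46-fold lower. Mir100 was 15.6-fold lower, but its low reads in KO replicates 1 and 3 helped choose the set. Mir125a remained above every WT library, at 0.313 CPM in KO replicates 1 and 3 and 0.132 CPM in WT on average, with a log2 fold change of 1.38 (SE 0.58, adjusted p = 0.969 by edgeR).

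**Figure D5:**
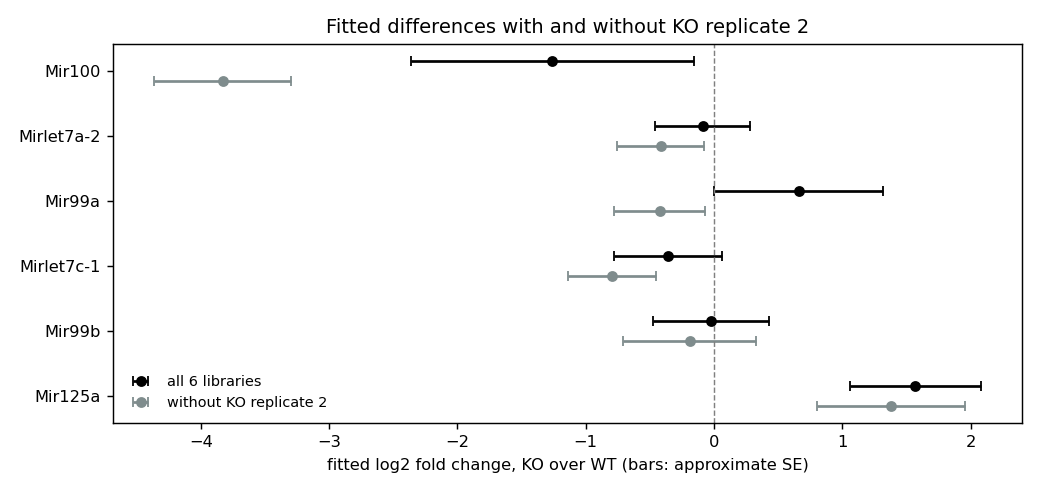
Fitted log2 fold change, KO over WT, with its approximate SE as bars, for the 4 members that passed the filter and the 2 let-7 precursors, with all 6 libraries in black and without KO replicate 2 in grey. Mir100 moves to -3.83 without that library, Mir99a turns to -0.42, and Mir125a is at 1.57 with all libraries and 1.38 without it.

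Features of other loci had profiles nearer to that of Mir100 than its cluster partners did, though the let-7 partners ranked fairly high. Likeness was the root mean square difference of log2 CPM, each feature centred on its own mean over the 6 libraries, and the median over 623 features was 1.86. A feature with no change across libraries would score 1.84, the size of the profile of Mir100 itself. The 5 nearest were Gm25641 (0.94), Gm49347 (1.31), Mir130b (1.39), the snRNA copy Gm23240 (1.39) and Mir351 (1.41). Gm25641, a provisional miRNA gene, had 2, 35 and 0 reads in KO and 18, 10 and 6 in WT. Mir351 had 7, 29 and 17 reads in KO and 24, 27 and 18 in WT, and its mature 5′ strand carries the miR-125 seed CCCUGAG. Of the let-7 precursors, Mirlet7c-1 came 8th of 623 at 1.46 and Mirlet7a-2, from the Mir100 cluster itself, 41st at 1.61. Mir99a came 22nd at 1.55. Mir99b, 213th at 1.79, was close to the score of a flat profile, and Mir125a, 577th at 2.34, was above it. These ranks describe 6 libraries that share depth and composition and carry no test.

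Related miRNAs outside the clusters showed no call. Of the miR-10 genes, evolutionary relatives of miR-99 and miR-100 that lie in the Hox clusters, Mir10a had 60.1 ± 5.52 CPM in KO and 58.0 ± 24.3 CPM in WT and Mir10b 0.489 ± 0.464 CPM in KO and 0.623 ± 0.520 CPM in WT (SD, n = 3 each). Both had overlapping genotypes, and Mir10a was at a log2 fold change of 0.11 (SE 0.31, adjusted p = 0.941 by edgeR). Of 9 let-7 precursors outside the clusters, 0 of 9 tested were called, with 6 higher and 3 lower estimates in KO and a median log2 fold change of 0.14. Of 13 other miRNAs listed for stem and progenitor cells, 9 were tested and 0 called, all 9 with higher estimates in KO and a median of 0.53. Higher estimates in KO were common among miRNAs, at 134 of the 205 tested miRNA features. The median was 0.21 over the 205 tested miRNA features, 0.32 over the 4 tested members and -0.08 over all 624.

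Among these stem and progenitor miRNAs Mir181a-1, known from lymphoid development, had 12.5 ± 7.39 CPM in KO and 9.73 ± 3.11 CPM in WT. Mir126a, known for keeping stem cells quiescent, was also listed as an endothelial marker, and which cells gave its reads was not tested. It had 274, 394 and 821 reads in KO and 29, 245 and 173 in WT. The log2 fold change of Mir126a was 1.75 (SE 0.80, adjusted p = 0.710 by edgeR). Its KO libraries lay above its WT libraries, as did those of Mir125a and the B lymphoid Mir150. So did those of Mir146 on the same list, with 141, 181 and 143 reads in KO and 7, 94 and 71 in WT. Over all 624 features, 2.72% had this order. Each of these genes was lowest in WT replicate 1, where miRNA features in general were low. Nothing is read from the shared order. KO replicate 3 was the highest for Mir126a and KO replicate 2 for Mir125a.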

How the data were processed

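Per the labels' protocols, small RNA libraries were size-selected on a gel and sequenced on a NovaSeq. The submitters' processing notes list Trimmomatic 0.38, Bowtie2 2.3.4.1 and the GRCm38 build. No source used here states the counting tool, its strand setting or its treatment of reads with several matches. The authors deposited read counts per feature, named by position, 1 table per library. Each lists features with at least 1 read, so a missing feature was set to 0. Of 1823 features, 1822 matched a GENCODE M21 gene.

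KO was compared with WT on the deposited counts by edgeR 4.0.16 in R 4.3.3 (quasi-likelihood, TMM, minimum count 10, minimum total 15, Benjamini-Hochberg over all 624 features kept, threshold 0.05). The fit was also run on simulated counts with known fold changes, drawn with dispersions estimated from these libraries. SE is the log2 fold change over the square root of F and is approximate. Log2 CPM for profiles used a prior count of 2. Alternatives were DESeq2 1.42.0, other scalings and filters, a replicate block, summed Mir125b copies and leaving out each library. Replicate pairs differed by more than sampling noise (chi-square per degree of freedom of 624 to 4042).

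The members and lists were chosen with earlier results of these data known. All 7 members are named, with the 5 features nearest to Mir100, the let-7 precursors of the clusters, and from each list those past the threshold and at most 3 with the highest level. Mir126a, Mir146, Mir199a-1 and ratios between members were singled out after their values were seen.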

Additional observations from a re-analysis of the deposited data

How the results depend on the processing

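Of the members other than Mir100, none was called under any alternative that tested it. This was 0 with other scalings, filters, DESeq2, summed Mir125b copies, the replicate block or any 1 library left out. Mir125a was not tested with at least 50 counts in 3 libraries, and Mirlet7e was tested only with no filter. Over all features 1 was called, and 13 with no filter, 0 with the replicate block, 0 without KO replicate 3 or any 1 WT library and 1 without KO replicate 1 or 2. Whether replicate numbers pair the libraries is not known. The correlation of same-numbered KO and WT libraries was -0.13, 0.40 and -0.36, and not every library correlated best with its own number. With values centred within groups of 3 libraries, these correlations cannot settle whether a batch was shared by number. The order of member levels held in every library for 11 of 15 pairs, 10 without division by length, 13 in WT alone and 11 to 12 with 1 library left out, where 5 libraries cannot go below an exact p of 0.0625. Mir99a reversed without KO replicate 2 (-0.42; all others positive, up to 1.13). Mir125b-2, at -0.27 with no filter, was 0.18 without KO replicate 1 and as low as -0.48 with another library left out. Mir99b, at -0.02, was 0.0900 with RLE size factors, 0.0905 with DESeq2, 0.0366 with no filter, 0.0399 with at least 50 counts in 3 libraries, 0.0769 with the replicate block, 0.20 without KO replicate 1, 0.10 without KO replicate 3, 0.62 without WT replicate 2 and -0.19 without KO replicate 2. The Mir100 value was -2.53 with the replicate block. Mir125a ranged from 1.29 to 2.21. With 1 library left out, the remaining pair of its group sets its spread. The causes were not tested. Members under about 12 reads a library (Mir125b-1, Mir125b-2, Mirlet7e) are limited by depth.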
